A study of Danio rerio with 18 samples.

Results

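Wildtype (WT) zebrafish larvae colonized with a complex community were compared with WT larvae colonized by a single bacterial strain, in 6 of the 18 RNA-seq libraries of the series. The 3 conventionalized (CONVD) libraries came from larvae exposed from 3 days post fertilization (DPF) to diluted water of a dish of conventionally reared larvae. The 3 Chrys libraries came from larvae mono-associated from 3 DPF with *Chryseobacterium* ZOR0023, a member of the Bacteroidetes. The libraries were chosen by their labels alone and no measured value entered the choice. The larvae of both groups were of the ABTL WT background, hatched germ-free, received their bacteria through the water and were pooled whole at 5 DPF, 15 larvae to a library. The other libraries came from germ-free (GF) WT larvae, WT larvae mono-associated with *Exiguobacterium* ZWU0009 (Exi) and *myd88* mutants, which were CONVD or GF. They are used below to place levels and counts of calls. They also entered the main fit, from which the spread of each gene was estimated. The bacterial density of the water was far higher for Chrys than for CONVD larvae, while the bacteria recovered per larva were estimated at the same order. The effect of the make-up of the community and that of the bacterial dose cannot be told apart in this design. The libraries are labelled as biological replicates, but separate crosses or dishes are not named. Any p-value of the main fit thus reflects only how far pools of the same group differed, over all 6 groups, which may be technical.

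Germ-free fish that receive bacteria through the water are colonized first in the gut, where epithelial cells and resident leukocytes meet the microbes and their products. Small aromatic molecules, made by bacteria among others, are sensed by the aryl hydrocarbon receptor, a ligand-activated transcription factor that pairs with Arnt. Its best known targets are the cytochrome P450 genes of family 1, which break such ligands down, and the gene of the aryl hydrocarbon receptor repressor, which closes the loop by competing for Arnt. Bacterial surface molecules are instead sensed by Toll-like receptors, which signal through Myd88 to NF-kB and AP1 factors and act on macrophages and neutrophils.

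The CONVD libraries held between 11787698 and 23600976 counted reads, and the Chrys libraries between 6404744 and 11582884. After a filter on low counts 23367 of 31388 genes were tested, and for 21196 of them (90.71%) the 95% interval of the difference lay within a fold change of 2. On the leading principal component of these 6 (34.4% of their variance), Chrys library 1 scored 25.3 and Chrys library 3 scored -29.4, while Chrys library 2 and the CONVD libraries lay between -2.4 and 2.8. Chrys library 3 held more ribosomal RNA sequence, with 81.5 CPM (read counts scaled to library size) summed over 7 genes named 5_8S_rRNA, against 2.78 and 11.1 CPM in Chrys libraries 1 and 2 and 1.08 to 4.85 CPM in the CONVD libraries. Of the 33 genes that lay below a log2 fold change of -2 without being called, 29 were highest in Chrys library 3. That library was also high in the matrix enzyme genes *mmp9* (26.8 CPM, against 10.3 and 8.80 CPM in the other Chrys libraries) and *mmp13a* (14.9, against 2.78 and 1.2 CPM), which were looked at after their values were seen. Many results that depend on 1 library are given with and without it, but not all.

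Few genes differed between the colonized groups. By edgeR's quasi-likelihood test on all 18 libraries, 27 genes (0.116% of those tested) passed an adjusted p of 0.05 with a fold change of at least 1.3. Of these, 10 (0.0428%) were higher and 17 (0.0728%) were lower in CONVD than in Chrys larvae. The median log2 fold change of all genes was 0.00092, and that of the called genes was 1.11 for the higher and -0.61 for the lower ones. At an unadjusted p of 0.05, 1425 genes (6.1%) differed, 696 (2.98%) being higher and 729 (3.12%) lower. The 3 CONVD libraries all lay above the 3 Chrys libraries for 1189 genes (5.09%) and all below them for 1124 genes (4.81%). Against GF larvae the same fit called 137 genes (0.586%) higher and 243 (1.04%) lower in CONVD larvae, and 99 (0.424%) higher and 253 (1.08%) lower in Chrys larvae, with the same GF libraries in both comparisons. The fit on all 18 libraries takes the spread of a gene from all 6 groups together. The Chrys libraries lay further apart than the CONVD libraries, by 0.313 to 0.387 against 0.190 to 0.252 (root mean square difference in log2 CPM). The count of 27 depended on the libraries used. It was 18 without Chrys library 1, 54 without Chrys library 2, 30 without Chrys library 3, 12 without Chrys libraries 1 and 3, and 7 when edgeR was fitted to the 6 libraries alone. Those 7 were *cyp1a*, *foxq1a*, *capn3b*, *znf106b*, *wu:fc46h12*, *CU914622.1* and the first of the genes named *zgc:153932*. The genes *cyp1a*, *foxq1a*, *capn3b* and the same *zgc:153932* gene kept their calls in all of the 16 alternatives.

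**Figure D1:**
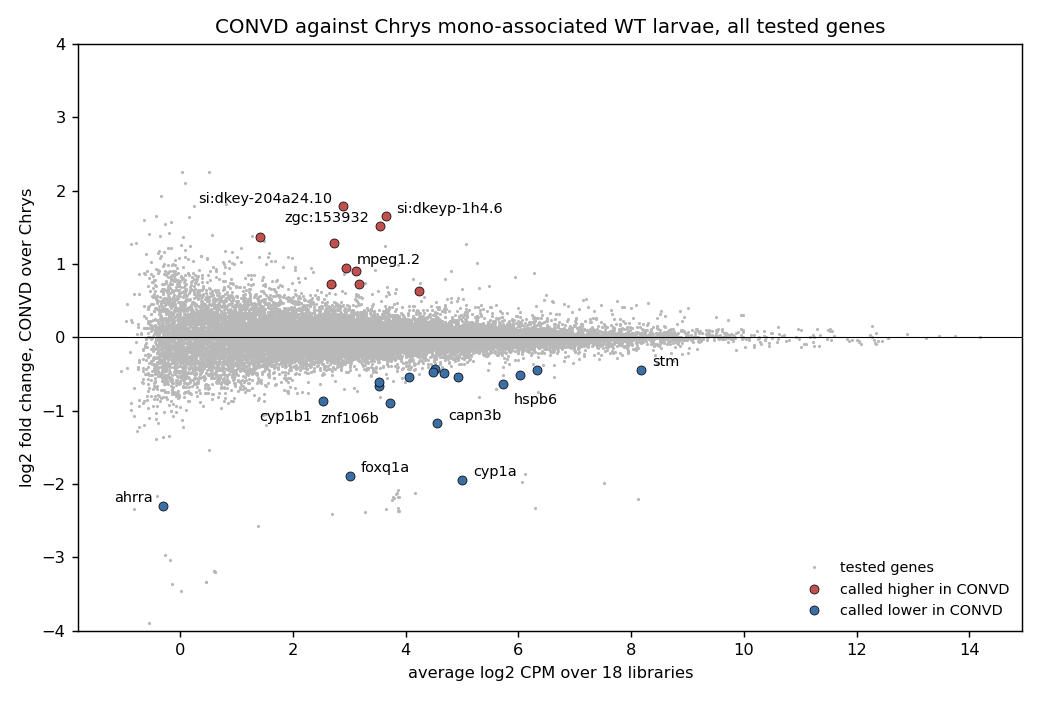
Log2 fold change of CONVD over Chrys larvae (vertical axis) against the average log2 CPM over 18 libraries (horizontal axis) for the tested genes. Red points are the 10 genes called higher and blue points the 17 called lower in CONVD larvae; 2 genes beyond a log2 fold change of 4 are not drawn.

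The gene with the smallest p-value, *cyp1a*, is a classical target of the aryl hydrocarbon receptor. Of 17 tested genes of a list of cyp1 genes, receptor subunits and known or possible targets, 4 were called lower in CONVD larvae, where 0.0728% of all genes were, and none was called higher. This list and those below were made with earlier results of these data known, so such counts are no independent support. The groups did not overlap for 8 genes of the list that were lower in CONVD larvae, where 4.81% of all genes were so, and for 1 that was higher, where 5.09% were. The median log2 fold change of the list was -0.17, against 0.00092 over all genes. Summed over the list, the libraries held 445, 430.3 and 442.4 CPM in CONVD larvae, against 508.7, 514.8 and 515.8 CPM in Chrys larvae. Much of that difference was of *cyp1a* alone, with a mean of 15.7 CPM in CONVD and 60.3 CPM in Chrys larvae.

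The gene *cyp1a* encodes the main ligand-degrading monooxygenase under control of this receptor. It stood at 15.7, 14.8 and 16.6 CPM in CONVD larvae, against 64.8, 59.2 and 57.0 CPM in Chrys larvae (mean 15.7 ± 0.91 and 60.3 ± 4.05, SD, n = 3 each). The groups lay far apart and the 3 libraries within each were close. CONVD over Chrys gave a log2 fold change of -1.94 (95% interval -2.12 to -1.76; adjusted p = 1.2e-15, edgeR's quasi-likelihood test), a level 0.26 times that of Chrys larvae. Over all 16 alternatives it ranged from -1.99 to -1.90, and the highest adjusted p was 2.8e-09.

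The gene of an aryl hydrocarbon receptor repressor, listed as CABZ01103755.1 in the files and as *ahrra* in the table of gene names, was a low gene. It had 0.17, 0.375 and 0.647 CPM in CONVD larvae, against 1.54, 2.90 and 1.46 CPM in Chrys larvae. The groups did not overlap, although these values rest on 23 reads in the CONVD and 54 in the Chrys libraries. Its log2 fold change was -2.29 (95% interval -3.09 to -1.50; adjusted p = 0.0037, edgeR). Without Chrys library 2, the highest of the 6, the adjusted p was 0.13, and the call was also lost when edgeR was fitted to the 6 libraries alone.

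The forkhead factor gene *foxq1a*, whose relative *foxq1b* is known in zebrafish as a gene induced by dioxin, is not itself established here as a target. It had 5.18, 3.00 and 4.53 CPM in CONVD larvae, against 13.2, 17.9 and 13.2 CPM in Chrys larvae. Its CONVD libraries all lay below its Chrys libraries. This is a log2 fold change of -1.89 (95% interval -2.29 to -1.49; adjusted p = 1.3e-05, edgeR). The last called gene of the list was *cyp1b1*, a monooxygenase gene of the same family. It had 6.12, 5.92 and 5.12 CPM in CONVD larvae, against 10.9, 12.1 and 7.45 CPM in Chrys larvae. Chrys library 3 came near the CONVD range without entering it. The log2 fold change was -0.87 (95% interval -1.2 to -0.53; adjusted p = 0.011, edgeR), and leaving out CONVD library 3, Chrys library 1 or Chrys library 2 ended the call (highest adjusted p 0.16). The call of *cyp1b1* was also lost with edgeR on the 6 or the 12 WT libraries alone and after thinning (highest adjusted p 0.57).

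**Figure D2:**
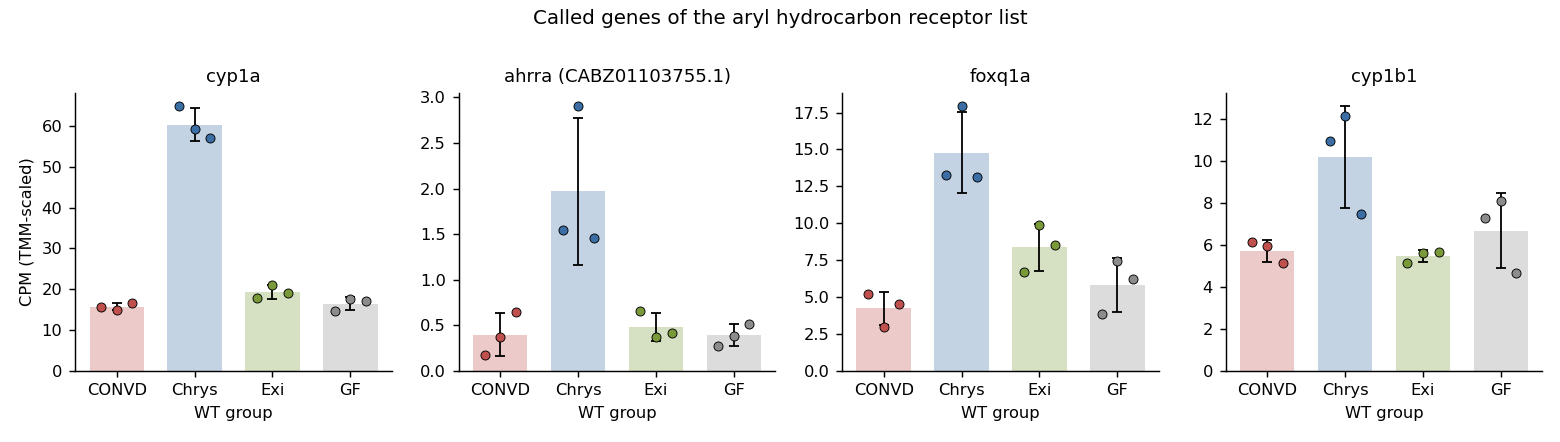
CPM of *cyp1a*, *ahrra*, *foxq1a* and *cyp1b1* (vertical axes, scaled separately) in WT larvae that were CONVD, Chrys, Exi or GF. Points are libraries, bars the mean and whiskers the SD of 3; for each of the genes the Chrys libraries lie above all CONVD libraries.

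The other genes of the list did not pass the test. The receptor gene *ahr2*, which carries most responses to dioxin in zebrafish, had 70.0, 73.0 and 72.4 CPM in CONVD larvae, against 78.5, 84.0 and 88.0 CPM in Chrys larvae. The groups did not overlap, with a log2 fold change of -0.22 and an adjusted p of 0.17 (edgeR). The P450 gene *cyp1c2* had a log2 fold change of -0.67 (95% interval -1.17 to -0.16; adjusted p = 0.63, edgeR), with no overlap between the groups. Over all genes, 4.81% had all CONVD libraries below all Chrys libraries. The second repressor gene, *ahrrb*, had a log2 fold change of -0.34 with an interval of -0.92 to 0.23. *Cyp1d1* had a log2 fold change of -0.17, and *tiparp*, a target of the receptor in mammals, one of -0.04 (95% interval -0.20 to 0.13). The partner genes *arnt* (-0.07) and *arnt2* (0.00) and the detoxifying enzyme gene *nqo1* (0.08) had intervals that lay between -0.23 and 0.26 on the log2 scale. The receptor gene *ahr1a* went the other way, with a log2 fold change of 0.70 on few reads (adjusted p = 0.75, edgeR).

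In the other WT groups *cyp1a* was near its CONVD level. It had 17.7, 21.1 and 19.2 CPM in Exi larvae and 14.6, 17.5 and 17.2 CPM in GF larvae. The log2 fold change over GF was -0.06 in CONVD larvae (adjusted p = 0.92, edgeR) and 1.88 in Chrys larvae (adjusted p = 2.3e-14), with the GF libraries shared by both. In *myd88* mutants, a separate line, it was 39.2 to 40.5 CPM in CONVD and 36.0 to 46.0 CPM in GF larvae, so the Chrys libraries lay above all mutant libraries as well. For *ahrra* the log2 fold change over GF was 0.13 in CONVD (adjusted p = 0.97, edgeR) and 2.42 in Chrys larvae (adjusted p = 0.0017). For *foxq1a* it was -0.48 in CONVD (adjusted p = 0.46) and 1.41 in Chrys larvae (adjusted p = 0.00015). For *cyp1b1* it was -0.22 in CONVD (adjusted p = 0.75) and 0.65 in Chrys larvae (adjusted p = 0.047). Between both mono-associated groups, where 44 genes (0.188%) were lower and 136 (0.582%) higher in Exi than in Chrys larvae, the log2 fold change of Exi over Chrys was -1.64 for *cyp1a* (adjusted p = 3.8e-13), -2.13 for *ahrra* (adjusted p = 0.0076), -0.86 for *foxq1a* (adjusted p = 0.025) and -0.92 for *cyp1b1* (adjusted p = 0.0062). In the fit on all 18 libraries these 4 genes were thus called higher in Chrys larvae against each of the CONVD, Exi and GF groups. These comparisons share the Chrys libraries. For *foxq1a* the Exi libraries, at 6.68, 9.90 and 8.51 CPM, also lay above the CONVD libraries (log2 fold change of CONVD over Exi -1.03, adjusted p = 0.025, edgeR). In whole larvae, more cells that express a gene and more RNA per cell cannot be told apart.

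Among the genes that were higher in CONVD larvae, 2 genes shared the name *zgc:153932*. The first of them (ENSDARG00000052779) had 28.1, 22.1 and 24.4 CPM in CONVD larvae, against 6.31, 11.5 and 6.58 CPM in Chrys larvae. The groups lay well apart, with a log2 fold change of 1.52 (95% interval 1.14 to 1.90; adjusted p = 0.00028, edgeR) and a fold of 2.87. The second (ENSDARG00000074642) had 18.8, 14.2 and 16.3 CPM in CONVD larvae, against 6.31, 10.6 and 8.04 CPM in Chrys larvae. Its log2 fold change was 0.91 (95% interval 0.63 to 1.2; adjusted p = 0.00089, edgeR). The call of this second gene was kept in 14 of the 16 alternatives, where the log2 fold change ranged from 0.61 to 1.17. It was lost, among others, with edgeR on the 6 libraries alone. Genes of the same name may be near copies between which short reads are split, so their separate levels are uncertain. Both had been put by hand on a list of zona pellucida glycoproteins, but no table used here pairs their IDs with a role, so none is given, and no other tested gene of that list was called.

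Both genes also stood above their GF level in either colonized group. The first had 1.64, 1.39 and 2.07 CPM in GF larvae and 14.7 to 17.9 CPM in Exi larvae. Its log2 fold change over GF was 3.84 in CONVD larvae (adjusted p = 1.1e-09, edgeR) and 2.32 in Chrys larvae (adjusted p = 5e-05). The second had a log2 fold change over GF of 2.04 in CONVD larvae (adjusted p = 1.7e-10) and of 1.13 in Chrys larvae (adjusted p = 0.00025). Chrys larvae thus lay between the CONVD and the GF larvae in both genes.

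The macrophage gene *mpeg1.2*, whose product belongs to the pore-forming perforin-2 proteins, showed the same order. It had 12.8, 8.63 and 11.3 CPM in CONVD larvae, against 4.0, 6.83 and 5.12 CPM in Chrys larvae, and 3.09, 2.14 and 2.17 CPM in GF larvae. The log2 fold change of CONVD over Chrys was 0.95 (95% interval 0.60 to 1.3; adjusted p = 0.0067, edgeR). Over GF it was 2.09 in CONVD (adjusted p = 1.1e-08) and 1.14 in Chrys larvae (adjusted p = 0.005). The Exi larvae, at 10.8 to 13.6 CPM, overlapped the CONVD range. The call depended on the fit. The adjusted p was 0.10 without Chrys library 1, the lowest, 0.90 without Chrys libraries 1 and 3, 0.28 with edgeR on the 6 libraries alone, 0.058 on the 12 WT libraries, 0.092 on these with a replicate block and 0.065 after thinning.

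Of 47 tested macrophage genes *mpeg1.2* was the only one called, where 0.0428% of all genes were called higher. Past an unadjusted p of 0.05, 11 of the list (23.4%) were higher and 2 (4.26%) lower in CONVD larvae, against 2.98% and 3.12% of all genes. The CONVD libraries all lay above the Chrys libraries for 13 of the 47, where 5.09% of all genes did so, and the median log2 fold change of the list was 0.17. Of the members, 31 had a positive and 16 a negative log2 fold change. The uncalled ones included *irg1l*, of the enzyme family that makes itaconate in mammals, with 13.3, 10.4 and 10 CPM in CONVD larvae, against 3.23, 7.77 and 6.29 CPM in Chrys larvae (log2 fold change 0.86; adjusted p = 0.062, edgeR). The progranulin family gene *grn2* had a log2 fold change of 0.83 (adjusted p = 0.28), and the macrophage marker *mfap4* one of 0.58 (adjusted p = 0.43). The values were 0.50 for the actin regulator *coro1a* (adjusted p = 0.22, edgeR), 0.31 for *lcp1*, which encodes L-plastin (adjusted p = 0.5), and 0.24 for the CSF1 receptor gene *csf1rb* (adjusted p = 0.53). The study treats L-plastin as a marker of leukocytes in general, so *lcp1* does not separate macrophages from neutrophils. On the other side, the cathepsin gene *ctssb.1* had a log2 fold change of -0.76 (adjusted p = 0.77), the scavenger receptor gene *timd4* one of -0.30 (adjusted p = 0.96) and the myeloid transcription factor gene *spi1b* one of -0.23 (adjusted p = 0.95). Summed over the macrophage list, the libraries held 447.4, 418.6 and 445.1 CPM in CONVD larvae, against 373.6, 390.8 and 405 CPM in Chrys larvae, 394.8 to 419 CPM in Exi larvae and 367.2 to 394.9 CPM in GF larvae. With a macrophage reporter line the study found more macrophages in the intestines of GF than of CONVD larvae. The sums given here are of RNA from whole larvae, which is another measure. The share of macrophage genes that were higher past an unadjusted p of 0.05 lay between 14.6% and 31.9% in the 16 alternatives. Of 33 tested neutrophil genes none was called, where 0.116% of all genes were. Of these 33, 14 had a positive and 19 a negative log2 fold change, and the median was -0.04. The neutrophil enzyme gene *mpx* had a log2 fold change of 0.26 (95% interval -0.03 to 0.56) and the lysozyme gene *lyz* one of 0.12 (95% interval -0.10 to 0.34). The lowest were the protease gene *mmp13a* at -1.19 (95% interval -2.54 to 0.17) and the protease inhibitor gene *timp2b* at -0.82 (95% interval -1.66 to 0.03), both of which were high in Chrys library 3, and the peptidoglycan recognition gene *pglyrp5* was at -0.79 (95% interval -1.67 to 0.09).

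**Figure D3:**
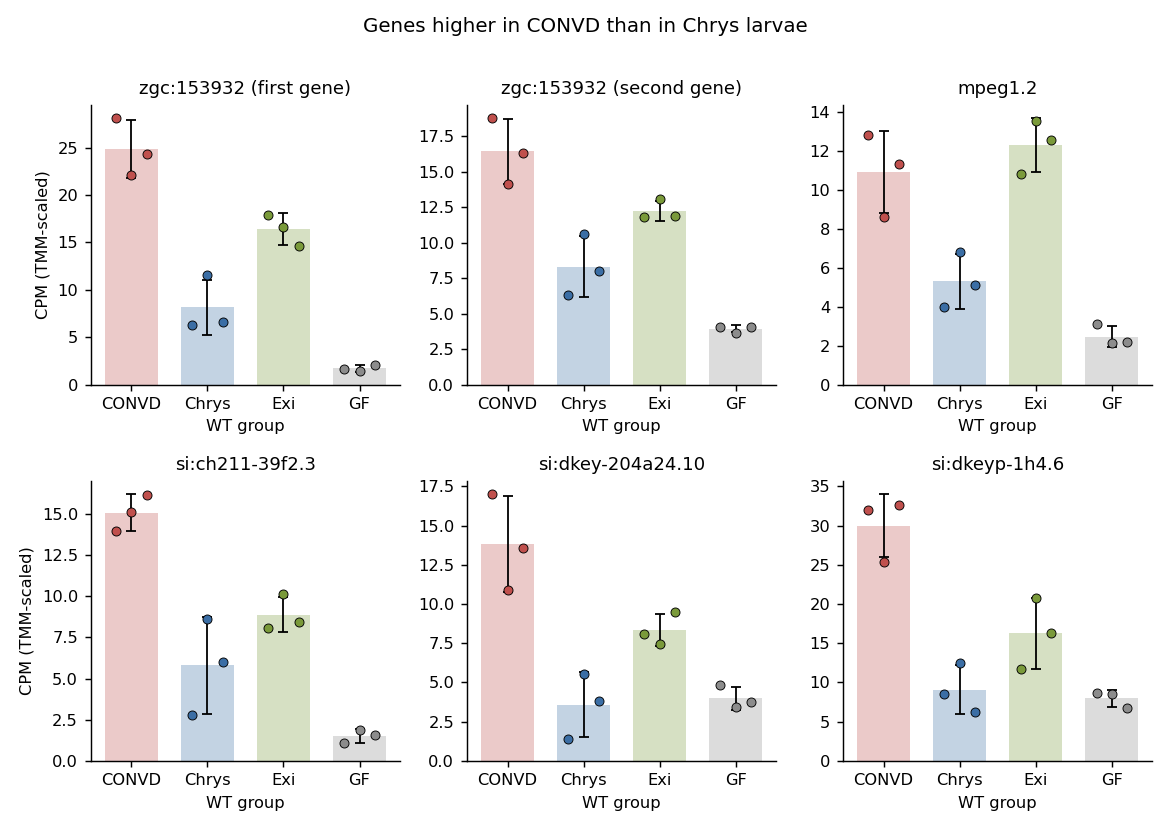
CPM of 6 genes called higher in CONVD than in Chrys larvae (vertical axes, scaled separately), in WT larvae that were CONVD, Chrys, Exi or GF. Points are libraries, bars the mean and whiskers the SD of 3; Chrys library 1, the left point of its group, is the lowest Chrys library in every panel but that of *si:dkeyp-1h4.6*.

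The remaining 7 genes called higher have no described product under the names the files use. The largest difference was that of *si:dkey-204a24.10*, called *urgcp* in the table of gene names, with 17, 10.9 and 13.5 CPM in CONVD larvae, against 1.39, 5.55 and 3.80 CPM in Chrys larvae (log2 fold change 1.78, 95% interval 1.24 to 2.33; adjusted p = 0.0048, edgeR). It was not called when the 2 groups alone or the 12 WT libraries alone were fitted, with adjusted p-values of up to 0.61. *Si:dkeyp-1h4.6* had 32.0, 25.4 and 32.6 CPM in CONVD larvae, against 8.47, 12.5 and 6.29 CPM in Chrys larvae (log2 fold change 1.65; adjusted p = 0.0022, edgeR). Its call was lost with the 6 libraries alone, with the replicate block and without Chrys libraries 1 and 3 (highest adjusted p 0.094). In both of these genes the Chrys larvae were near GF larvae, with log2 fold changes over GF of -0.05 and 0.25, while those of CONVD larvae were 1.74 and 1.90. *Si:ch211-39f2.3* had 13.9, 15.1 and 16.2 CPM in CONVD larvae, against 2.77, 8.62 and 5.99 CPM in Chrys larvae (log2 fold change 1.28; adjusted p = 0.0053, edgeR). Its call was kept in 13 of the 16 alternatives. Among the losses were the fits of edgeR and of DESeq2 to the 6 libraries alone. *CU914622.1* (1.37), *si:dkey-13i15.2* (0.73), *si:dkey-187j14.6* (0.72) and *si:ch211-226h7.2* (0.63) were the others, by log2 fold change. Leaving out Chrys library 1 ended the calls of all 4, and for *si:dkey-13i15.2* the call was also lost without any one of the CONVD libraries or without Chrys library 3. Without CONVD library 3 or Chrys library 2, *si:dkey-187j14.6* was not called either.

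Beside the genes of the aryl hydrocarbon receptor list, 13 genes were called lower in CONVD larvae. The gene *capn3b* encodes a calpain protease that acts in zebrafish in the turnover of p53 in digestive organs, and whose mammalian counterpart is a muscle protease. It had 12.2, 15.6 and 14.0 CPM in CONVD larvae, against 30, 29.9 and 36.5 CPM in Chrys larvae (log2 fold change -1.17, 95% interval -1.41 to -0.94; adjusted p = 1.3e-06, edgeR). The groups lay far apart, with no overlap. The zinc finger gene *znf106b* had 8.16, 9.30 and 8.74 CPM in CONVD larvae, against 15.9, 15.9 and 17.5 CPM in Chrys larvae (log2 fold change -0.90; adjusted p = 3.8e-05, edgeR). The GF larvae lay between both groups in these genes, with log2 fold changes over GF of -0.44 in CONVD (adjusted p = 0.054) and 0.73 in Chrys larvae (adjusted p = 0.00037) for *capn3b*, and of -0.44 (adjusted p = 0.035) and 0.46 (adjusted p = 0.033) for *znf106b*.

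The small heat shock protein gene *hspb6*, known from muscle in mammals, had 42.8, 44.5 and 46.5 CPM in CONVD larvae, against 86.5, 62.6 and 60.8 CPM in Chrys larvae (log2 fold change -0.64; adjusted p = 0.0005, edgeR). Chrys library 1 was the highest of the 6, and the call was kept without any 1 library. The myosin light chain kinase family gene *mylk4b* had 20.9, 22.7 and 23.0 CPM in CONVD larvae, against 39.7, 28.4 and 30.8 CPM in Chrys larvae (log2 fold change -0.54; adjusted p = 0.0053). Its call was lost without Chrys library 1 (adjusted p = 0.12). It was also lost with edgeR on the 6 or the 12 WT libraries alone and with the replicate block. The coenzyme Q binding protein gene *coq10b* had 49.1, 49.5 and 52.9 CPM in CONVD larvae, against 85.5, 63.3 and 70.2 CPM in Chrys larvae (log2 fold change -0.52; adjusted p = 0.0034). Its call was kept in 14 of the 16 alternatives and lost, among others, with edgeR on the 6 libraries alone. *Coq10b* was below GF larvae in the CONVD group (log2 fold change -0.44, adjusted p = 0.0016) and near them in the Chrys group (0.08, adjusted p = 0.81). Of 86 tested genes of the muscle list none was called, where 0.116% of all genes were, and their median log2 fold change was -0.05. Past an unadjusted p of 0.05, 14 (16.3%) were lower and 4 (4.65%) higher, against 3.12% and 2.98% of all genes. In the 16 alternatives 5.81% to 24.4% were lower. Their summed level overlapped between the groups, at 102100 to 106700 CPM in CONVD and 104100 to 107500 CPM in Chrys larvae.

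The otolith matrix gene *stm* (starmaker) had 224, 230 and 247 CPM in CONVD larvae, against 317, 288 and 349 CPM in Chrys larvae (log2 fold change -0.44; adjusted p = 0.0073, edgeR). Its call was lost without CONVD library 1, Chrys library 1 or Chrys library 3 (highest adjusted p of these 0.077). It was also lost with edgeR on the 6 libraries alone. The homeobox gene *dlx3b*, which acts in the ear and olfactory placodes of zebrafish, had a log2 fold change of -0.61 (adjusted p = 0.044), and *arpp21*, a cyclic AMP regulated phosphoprotein gene of the brain in mammals, one of -0.54 (adjusted p = 0.023). Both calls depended on the libraries used. Among the fits that leave out 1 library, *dlx3b* kept its call only without Chrys library 2, and *arpp21* only without Chrys library 2 or CONVD library 2. The genes *zgc:110366* (-0.66), *si:ch211-285j16.2* (-0.48), *si:dkey-251i10.2* (-0.48) and *wu:fc46h12* (-0.45) made up the others named by the rule. Of these, *wu:fc46h12* kept its call without any 1 library, with 76.8, 73.6 and 69.4 CPM in CONVD larvae, against 104, 93.8 and 102 CPM in Chrys larvae. The last of the 27, *tmem41ab* (log2 fold change -0.43; adjusted p = 0.044), lay outside the rule and is named after its values were seen. Among the fits that leave out 1 library, the call of *tmem41ab* was kept only without Chrys library 2. Leaving out CONVD library 2 or Chrys library 2 ended the call of *zgc:110366*, CONVD library 2 or 3 or Chrys library 2 or 3 that of *si:ch211-285j16.2*, and any library other than CONVD library 2 that of *si:dkey-251i10.2*.

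The genes that the study follows in its text, many of them of the Myd88, AP1 and C/EBP route, did not pass the test between CONVD and Chrys larvae. Of 15 such genes in the files 12 were tested and none was called, where 0.116% of all genes were. The AP1 gene *fosl1a* had 2.46, 2.58 and 2.75 CPM in CONVD larvae, against 2.00, 2.39 and 5.85 CPM in Chrys larvae, and 28.6, 29.6 and 25.7 CPM in GF larvae. Chrys library 3 alone lay above the CONVD range. The log2 fold change of CONVD over Chrys was -0.32 (95% interval -0.86 to 0.22; adjusted p = 0.96, edgeR), and 0.22 without that library. Over GF it was -3.41 in CONVD larvae (adjusted p = 5.6e-13) and -3.09 in Chrys larvae (adjusted p = 3.9e-11). The AP1 family gene *jdp2b* had a log2 fold change of 0.02 (95% interval -0.34 to 0.38), with 4.50, 4.29 and 4.04 CPM in CONVD larvae, against 4.77, 4.01 and 3.95 CPM in Chrys larvae, and 19.9 to 20.7 CPM in GF larvae.

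The adaptor gene *myd88* itself had 4.42, 5.79 and 4.32 CPM in CONVD larvae, against 5.54, 4.95 and 5.99 CPM in Chrys larvae, and 9.11 to 12.3 CPM in GF larvae. The colonized groups overlapped, with a log2 fold change of -0.14 (95% interval -0.48 to 0.21). The inhibitor gene of NF-kB *nfkbiaa* had a log2 fold change of 0.05 (95% interval -0.22 to 0.31) and the clock gene *nr1d1* one of 0.02 (95% interval -0.21 to 0.26). Both intervals lie within a fold change of 1.5. The genes *cebpb* (-0.27, interval -0.72 to 0.18), *cebpd* (0.16, -0.24 to 0.56) and both genes named *socs3a* (-0.18, -0.81 to 0.44, and -0.18, -0.87 to 0.51) were measured less closely. The intervals of the cytokine gene *il1b* (-0.29, -1.11 to 0.52) and the acute phase gene *saa* (-0.25, -1.22 to 0.73) include a level 2-fold lower in CONVD larvae, but not one 2-fold higher. The gene *angptl4*, which encodes an inhibitor of lipoprotein lipase, had 58.3, 61.0 and 65.0 CPM in CONVD larvae, against 61.3, 64.9 and 89.5 CPM in Chrys larvae (log2 fold change -0.22, 95% interval -0.40 to -0.04; adjusted p = 0.69). Too few reads were counted to test *tnfa* (9 in CONVD and 5 in Chrys libraries), *tlr2* (9 and 1) and *il6* (5 and 0).

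**Figure D4:**
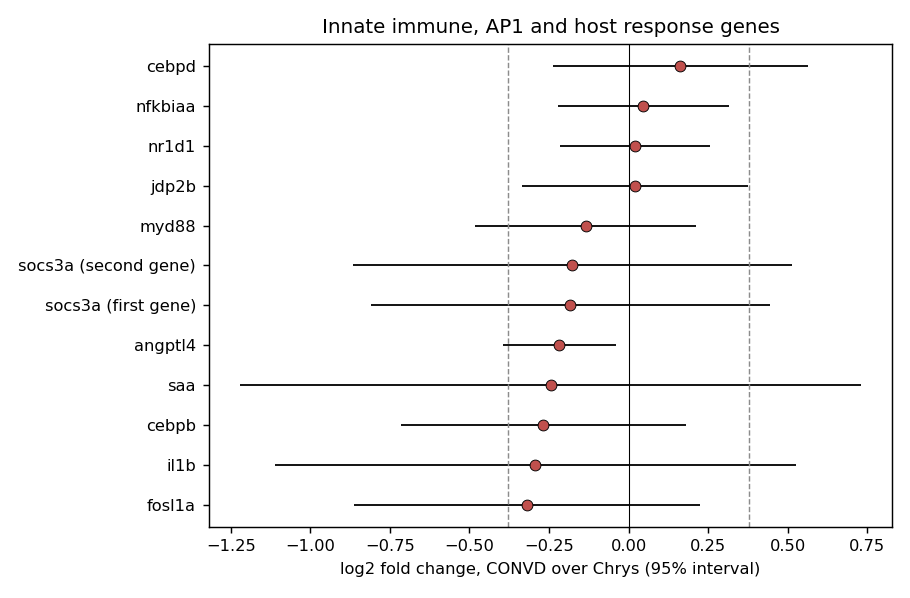
Log2 fold change of CONVD over Chrys larvae (horizontal axis) with its 95% interval for the 12 tested genes that the study names in its text. Dashed lines mark a fold change of 1.3 in either direction; every point lies between them and no gene is called.

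None of the tested genes was called among 15 AP1 subunits, 7 C/EBP factors, 36 immediate early genes, 20 Socs and Dusp suppressors, 20 genes of Toll-like receptors and the Myd88 pathway, and 45 circadian clock genes. Over all tested genes the share called was 0.116%. The medians of these lists lay between -0.07 and 0.04 on the log2 scale, and their shares past an unadjusted p of 0.05 were at most 6.67% in 1 direction, against 2.98% and 3.12% of all genes. Summed over the AP1 subunits, the libraries held 370.5, 306.0 and 325.0 CPM in CONVD larvae, against 324.8, 363.3 and 330.5 CPM in Chrys larvae, and 549.5 to 592.1 CPM in GF larvae. The colonized groups overlapped while both lay below GF larvae. Exi larvae, at 475.0 to 548.4 CPM, lay nearer to the GF range in this sum, to which abundant genes add most. The more abundant *fosab* gene (mean 117.9 CPM in Exi and 88.3 CPM in GF larvae) and *junbb* (69.0 and 50.6 CPM) were higher in Exi larvae without being called. Other members were lower, with log2 fold changes of Exi over GF of -2.01 for *fosl1a* (adjusted p = 2.4e-08, edgeR), -0.82 for *jdp2b* (7.6e-05) and -0.65 for *fosl2* (2.6e-07).

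No gene of the enterocyte, lysosome-rich enterocyte, exocrine pancreas, bile acid and complement lists was called, where 0.116% of all genes were. The medians of these lists were above 0. Of 70 tested genes of enterocyte absorption and the brush border, 12 (17.1%) were higher and 3 (4.29%) lower past an unadjusted p of 0.05, against 2.98% and 3.12% of all genes, and the median log2 fold change was 0.22. The aminopeptidase gene *anpepa* had 14.9, 17.8 and 14.9 CPM in CONVD larvae, against 10.5, 13 and 13 CPM in Chrys larvae (log2 fold change 0.38; adjusted p = 0.39, edgeR). The fatty acid binding protein gene *fabp2* had 413, 338 and 317 CPM in CONVD larvae, against 214, 306 and 314 CPM in Chrys larvae (log2 fold change 0.35; adjusted p = 0.77). Chrys library 1 was the lowest in the summed list, which was 4416, 3992 and 4136 CPM in CONVD larvae, against 3133, 4032 and 4070 CPM in Chrys larvae. Without that library 4 of 72 tested genes (5.56%) were higher past an unadjusted p of 0.05, and the median was 0.09.

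Lysosome-rich enterocytes take up protein from the gut lumen and digest it inside the cell. Of 45 tested genes of this list, 9 (20%) were higher and none lower past an unadjusted p of 0.05, against 2.98% and 3.12% of all genes. Of the members, 32 had a positive and 13 a negative log2 fold change, with a median of 0.09. The cathepsin gene *ctsc* had 31.7, 34.6 and 35.3 CPM in CONVD larvae, against 27.6, 27.8 and 24.6 CPM in Chrys larvae, with an adjusted p of 0.0499 (edgeR) but a log2 fold change of 0.35, which is below the 1.3-fold minimum. The ceramidase gene *asah1b* had a log2 fold change of 0.46 (adjusted p = 0.17). Without Chrys library 1 the share was 11.1%, and without Chrys libraries 1 and 3 it was 6.67%. For 33 tested exocrine pancreas genes, which encode digestive enzymes, the median log2 fold change was 0.41, and 2 (6.06%) were higher past an unadjusted p of 0.05. Their summed level overlapped between the groups, with 2648, 1481 and 1930 CPM in CONVD larvae, against 1414, 1025 and 2083 CPM in Chrys larvae. The bile acid genes *cyp8b1* and *cyp7a1a*, which encode enzymes of bile acid synthesis, had log2 fold changes of 0.43 (adjusted p = 0.6) and 0.50 (adjusted p = 0.64). Of 33 tested complement genes, 5 (15.2%) were higher and none lower past an unadjusted p of 0.05, and the median was 0.20. Their summed level overlapped, with 599.9, 521.7 and 630.3 CPM in CONVD larvae, against 464.3, 517.0 and 594.1 CPM in Chrys larvae.

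**Figure D5:**
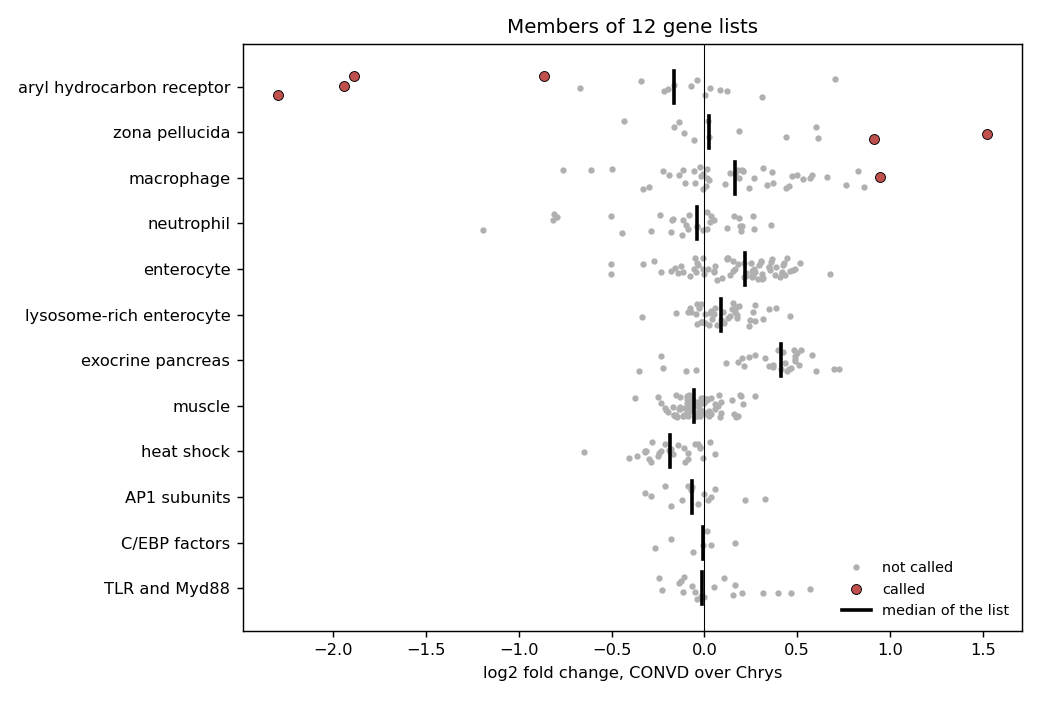
Log2 fold change of CONVD over Chrys larvae (horizontal axis) for the tested members of 12 gene lists (rows). Grey points are genes that were not called, red points the 7 called genes and black bars the list medians.

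Of 52 lists made, 49 had no called member, where 0.116% of all genes were called, and not all of them are described here. The list of heat shock chaperones, which does not hold *hspb6*, had a median log2 fold change of -0.19, with 4 of 29 tested genes (13.8%) lower past an unadjusted p of 0.05, against 3.12% of all genes, and none higher. For glycolysis and gluconeogenesis, 7 of 47 tested genes (14.9%) were lower and none higher, and for the subunits of the respiratory chain and ATP synthase 9 of 99 (9.09%) were lower and none higher, with medians of -0.03 and -0.07. Among the ammonia transporter genes, *rhcga* had 12.2, 13.5 and 13.9 CPM in CONVD larvae, against 9.86, 8.28 and 4.68 CPM in Chrys larvae (log2 fold change 0.79; adjusted p = 0.47), and *rhcgb* had 19.4, 13.6 and 15.5 CPM in CONVD larvae, against 19.9, 20.1 and 28.5 CPM in Chrys larvae (log2 fold change -0.51; adjusted p = 0.15). The mucin gene *muc13a* had a log2 fold change of 0.59 (adjusted p = 0.26, edgeR). Its CONVD libraries all lay above its Chrys libraries, as they did for 5.09% of all genes. Among genes of the interferon response, *isg15* had a log2 fold change of 1.36 on few reads (95% interval 0.43 to 2.3; adjusted p = 0.53, edgeR) and *stat2* one of 0.28 (adjusted p = 0.46). Of 38 tested genes of that list, 23 had a positive and 15 a negative log2 fold change, with a median of 0.10. Past an unadjusted p of 0.05, 5 (13.2%) were higher and 2 (5.26%) lower, against 2.98% and 3.12% of all genes.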

How the data were processed

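Each library was made from total RNA of 15 whole larvae, does not mark the strand and was read from 1 end for 50 nucleotides. The authors mapped the reads to the zebrafish assembly GRCz10 with the GeneTiles server, and their notes name Bowtie2, SAMtools and DESeq, with versions not given in the sources used here. Per gene and library the authors deposited a raw read count. In 9 of the 18 deposited libraries an unnamed last entry is not a whole number, so these columns were classed with expected counts. This entry, 1 in each, was left out, and the gene values themselves are whole-number counts. These 9 are the GF, Exi and Chrys libraries of WT larvae, and no CONVD or mutant library has such an entry. Whether the groups were processed apart was not tested.

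The counts were analysed with edgeR 4.0.16 in R 4.3.3, with DESeq2 1.42.0 as an alternative, and with pandas 2.3.3 and matplotlib 3.10.9 in Python 3.11.15. Genes were kept by filterByExpr (minimum count 10, minimum total 15), normalized by TMM and fitted on all 18 libraries with 1 coefficient per group (12 residual degrees of freedom), and the contrast of CONVD minus Chrys was tested by robust quasi-likelihood F-tests with Benjamini and Hochberg's adjustment over all tested genes. A gene was called at an adjusted p under 0.05 and a fold change of at least 1.3. CPM were computed with TMM library sizes. They compare a gene between libraries and not genes with each other. Libraries of the same group differed by more than counting noise (chi-square per degree of freedom 2.88 to 5.46). The scripts were tested on simulated data.

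Genes were named by a rule: up to 15 called genes with the largest rises and 15 with the largest falls among those whose groups did not overlap and whose average log2 CPM reached 1, up to 6 called members of each list, and the genes that the study names in its text. Uncalled list members are given as examples. The members and lists were chosen with earlier results of these data known. The alternatives were RLE size factors, DESeq2, the 2 groups or the 12 WT libraries alone, no filter, no minimum fold change, a replicate block, each library left out, Chrys libraries 1 and 3 left out, and libraries thinned to 6404744 reads. Genome coordinates and sequences were not used here.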

Additional observations from a re-analysis of the deposited data

How the results depend on the processing

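Of the 27 calls, 12 held without any 1 library and 4 in all of the 16 alternatives, and no called gene changed direction. The count was 27 with RLE size factors, 23 with DESeq2 on the 2 groups alone, 32 without a filter and 31 without a minimum fold change. DESeq2 on 18 libraries called 38 genes, 20 of them higher. EdgeR on the 2 groups alone called 7 (2 higher, 5 lower), and on the 12 WT libraries 16 (9 lower). Leaving out 1 library gave 18 to 54 calls, 6 to 31 of them higher and 12 to 23 lower. Without Chrys libraries 1 and 3, 12 genes were called (4 higher, 8 lower), of which 10 were among the 27, and 19 (9 lower) after thinning to equal total counts. Thinning left too few reads to test *ahrra*. With 1 Chrys library left, the spread is taken from the other groups alone, and with 2 left it is taken mostly from them. With the replicate number as a block on the 12 WT libraries 23 genes were called, 18 of them among the 27. Same-numbered libraries correlated at 0.035, 0.026 and 0.108 in their deviations. CONVD libraries 1 and 3 correlated best with the Chrys library of their number, and CONVD library 2 with Chrys library 1 (0.038). Correlations this small do not decide whether the numbers pair the libraries.

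The log2 fold changes that changed sign belonged to uncalled genes. Over the fits that leave out 1 library, *nfkbiaa* ranged from -0.071 to 0.11, *jdp2b* from -0.034 to 0.092, *nr1d1* from -0.11 to 0.13, *cebpd* from -0.028 to 0.34, *cebpb* from -0.44 to 0.028, *saa* from -0.65 to 0.26, *fosl1a* from -0.60 to 0.22, *il1b* from -0.79 to 0.089, and the *socs3a* genes from -0.34 to 0.071 and from -0.33 to 0.10. Without Chrys libraries 1 and 3 *fosl1a* was 0.13, *nr1d1* -0.17, *saa* 0.47, *cebpd* -0.11 and *il1b* 0.72. After thinning *myd88* was 0.12 and *nr1d1* -0.058. The cause was not tested. The Chrys libraries are shallower than the CONVD libraries, which limits what can be seen of genes with few reads.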
